A study of Mus musculus with 12 samples.

Results

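The genes Mest, Ndn, Peg3, Plagl1, Igf2, Dlk1, Peg10, Sgce, Snrpn and Nnat, known in the mouse to be expressed from the paternal allele, were followed from embryonic stem (ES) cells into embryoid bodies. They were read through every probe set that the array annotation assigned to exactly 1 of these symbols, which gave 26 probe sets of 10 genes, against 18193 genes with such probe sets in the whole study. Of the 26 probe sets, 21 lay on the first chip of the array set (chip A) and 5 on the second (chip B). A further 6 probe sets named Snrpn together with another gene and were left out by the same rule.

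The study compared J1 mouse ES cells with embryoid bodies, the aggregates in which ES cells start to differentiate, made from the same line. The ES cells had been kept for 2 days on gelatin in D-MEM with antibiotics (penicillin and streptomycin), non-essential amino acids, glutamax and 10% fetal bovine serum, and also with sodium pyruvate, β-mercaptoethanol and leukemia inhibitory factor (LIF), which keeps ES cells undifferentiated. For the embryoid bodies, culture lasted 5 days, in bacterial Petri dishes with the same base medium and serum, and LIF, β-mercaptoethanol and pyruvate were left out. No group carried a mutation or a drug, and both rested on this 1 cell line. The ES samples were given as 95% pure by eye, with DR4 feeder fibroblasts as the contaminating cells, and no purity was given for the embryoid bodies. Total RNA of 3 samples per state was put on both chips, for 12 arrays. The labels do not say whether the 3 samples of a state were cultured separately, and the p-values rest on the variation among these samples alone, and that variation may be technical.

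Imprinted genes carry methylation set in the egg or sperm that leaves 1 parental copy active, and the marks sit in imprinting control regions. In the early mouse embryo the zinc finger protein ZFP57 binds the methylated hexamer TGCCGC in such regions and recruits TRIM28, which holds the methylation in place while the rest of the genome loses it. Many genes active on the paternal copy promote growth of the fetus and placenta, and several are abundant in mesoderm, the developing brain and cultured fibroblasts. The arrays measure RNA from both parental copies together, so they give no measure of imprinting itself. In bulk RNA, fewer cells expressing a gene and less of its RNA per cell cannot be told apart.

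Promoter sequences are shown for the 4 genes that had 2 or more called probe sets or the largest rise on chip A. Each is the RefSeq window (GRCm38.p6) from 250 bases before to 50 bases after an annotated start, and capitals mark TGCCGC or its reverse complement GCGGCA, searched on both strands. Mest, on chromosome 6, has several annotated starts, and the window shown was picked from them because it holds matches (chr6:30737800-30738099, + strand). The others shown are Plagl1 (chr10:13090582-13090881, + strand), Ndn (chr7:62348027-62348326, + strand) and Peg3 (chr7:6730370-6730669, − strand).
Mest: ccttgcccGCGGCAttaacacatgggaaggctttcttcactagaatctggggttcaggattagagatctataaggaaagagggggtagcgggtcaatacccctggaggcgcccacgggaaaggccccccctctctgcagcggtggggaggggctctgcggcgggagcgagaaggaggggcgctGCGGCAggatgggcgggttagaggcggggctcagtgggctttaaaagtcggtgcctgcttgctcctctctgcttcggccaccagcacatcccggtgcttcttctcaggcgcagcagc
Plagl1: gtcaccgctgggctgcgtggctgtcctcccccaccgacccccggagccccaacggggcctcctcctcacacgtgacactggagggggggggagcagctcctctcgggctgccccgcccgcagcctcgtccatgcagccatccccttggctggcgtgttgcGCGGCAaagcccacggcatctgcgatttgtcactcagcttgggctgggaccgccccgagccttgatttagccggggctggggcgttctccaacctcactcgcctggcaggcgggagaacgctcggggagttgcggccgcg
Ndn: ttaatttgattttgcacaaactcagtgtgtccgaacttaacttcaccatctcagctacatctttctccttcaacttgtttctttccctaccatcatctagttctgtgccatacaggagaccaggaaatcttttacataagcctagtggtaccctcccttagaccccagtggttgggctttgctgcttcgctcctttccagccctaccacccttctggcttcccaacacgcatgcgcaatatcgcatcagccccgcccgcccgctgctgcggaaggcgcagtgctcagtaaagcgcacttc
Peg3: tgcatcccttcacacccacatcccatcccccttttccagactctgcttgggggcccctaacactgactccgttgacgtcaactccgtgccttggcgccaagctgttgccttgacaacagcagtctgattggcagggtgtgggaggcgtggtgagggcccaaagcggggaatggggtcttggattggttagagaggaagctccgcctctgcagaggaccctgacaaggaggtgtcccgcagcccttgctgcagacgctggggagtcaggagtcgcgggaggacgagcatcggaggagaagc
The Mest window shown holds 2 matches and 17 CpG dinucleotides, and the Plagl1 window 1 match and 26 CpG dinucleotides. A second Mest window overlaps the one shown, and another upstream of it holds 0 matches and 8 CpG dinucleotides. No match lies in the windows of Ndn and Peg3, which hold 11 and 13 CpG dinucleotides. Of all 32851 RefSeq promoter windows of this length, 11.6% hold a match, and their median number of CpG dinucleotides is 7 (quartiles 3 and 20). Windows were found for 8 of the 10 genes, 16 in all, and 6 windows of 5 genes (Mest, Plagl1, Igf2, Snrpn and Nnat) hold a match. A match is a stretch of letters and not a measured binding site.

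Of the 26 probe sets, 11 rose in embryoid bodies and 0 fell (limma, adjusted p below 0.05 over all probe sets of the chip). The rises came from 5 of the 10 genes, counting each gene with at least 1 called probe set: Mest, Ndn, Plagl1, Peg3 and Dlk1. The share of all genes by that count was not computed, and the count favours genes with many probe sets, such as Ndn with 8. With 1 probe set per gene, Mest, Ndn and Peg3 rose, and Plagl1 and Dlk1 were not called. Read in that way, 4.42% of all genes rose. On chip A 9 of 21 probe sets rose, where 3.39% of all probe sets of the chip rose and 2.91% fell. Ndn alone gave 8 of these 21 probe sets and 5 of the 9 that rose. Probe sets of 1 gene on the same arrays are not independent, so the chip A counts and median lean on Ndn. On chip B 2 of 5 rose, where 5.77% of all rose and 4.91% fell. At an unadjusted p below 0.05, 11 probe sets on chip A were higher and 0 lower, where 11% of the chip was higher and 11% lower. On chip B 2 were higher and 1 was lower, where 14.7% and 13.4% of the chip were. The median log2 change of the 21 probe sets on chip A was 0.55, beside −0.05 for all probe sets, and that of the 5 on chip B was −0.16, beside −0.00. Every embryoid body array lay above every ES array for 10 of 21 probe sets on chip A (13.1% of all) and 2 of 5 on chip B (17.3% of all). It lay below for 1 on chip A (14% of all) and 1 on chip B (16.2% of all). All 11 called probe sets were brighter on average than the 40th percentile of their chip, as were 18 of the 26.

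**Figure D1:**
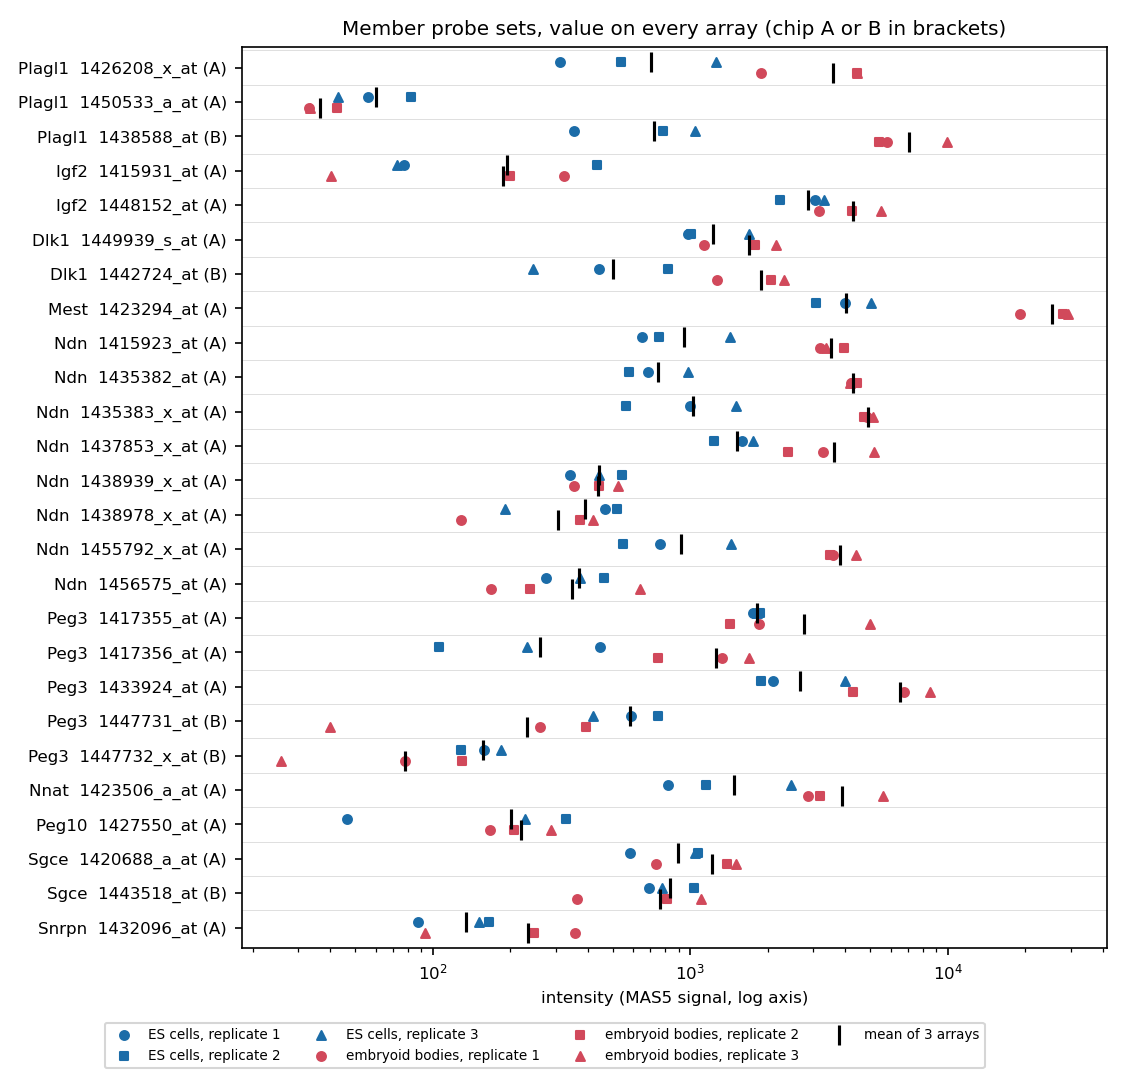
Intensity of each of the 26 probe sets on each of the 6 arrays of its chip, on a log axis, with ES cells in blue, embryoid bodies in red, a marker shape per replicate and a black bar for the mean of 3 arrays. All red points lie to the right of all blue points for 12 probe sets: 1 of Mest, 5 of 8 of Ndn, 2 of 3 of Plagl1, 2 of 5 of Peg3, 1 of 2 of Dlk1 and 1 of Nnat.

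Values below are intensities on a linear scale as deposited, in the order of replicates 1, 2 and 3. Log2 changes are embryoid bodies minus ES cells of log2(intensity + pseudocount), with a pseudocount of 136 on chip A and 253 on chip B, so a fold change on that scale understates the change of dim probe sets. Each is given with its standard error or 95% interval from limma. With 3 arrays per group, their number limits the precision. Bright and dim refer to the intensity of a probe set on its chip, and levels are not compared as amounts of RNA between genes or probe sets.

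Mest (mesoderm-specific transcript), named for its expression in mesoderm, encodes a protein of the alpha/beta hydrolase fold family. It had the largest change of the 10 genes on chip A. Its single probe set, 1423294_at, read 3972, 3074 and 5028 in ES cells and 19021, 27891 and 29173 in embryoid bodies. The lowest embryoid body array was far above the highest ES array, and the groups did not overlap. The log2 change was 2.62 ± 0.22 (SE, n = 3 per group), or 6.14-fold, with a limma adjusted p of 0.000518. The call held when each of the 6 arrays was left out in turn, with adjusted p from 0.000521 to 0.00519.

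Plagl1 (also called Zac1) is a zinc finger transcription factor that can halt the cell cycle and, in the mouse, regulates other imprinted genes. Its chip B probe set 1438588_at read 354, 782 and 1040.3 in ES cells and 5815, 5420.2 and 9882 in embryoid bodies. All embryoid body arrays were high and the groups were far apart. The log2 change was 2.92 ± 0.34 (SE, n = 3 per group), or 7.55-fold, with a limma adjusted p of 0.00173, the largest change among the 26 probe sets. It was kept without each array in turn. On chip A, 1426208_x_at read 313, 538 and 1256 in ES cells and 1872, 4424 and 4435 in embryoid bodies. Here ES replicate 3 was the highest of its group and embryoid body replicate 1 the lowest, but the groups did not overlap. The log2 change was 2.21 ± 0.43 (SE) with a limma adjusted p of 0.0186. The call was lost without ES replicate 1 (0.0652), ES replicate 2 (0.0647), embryoid body replicate 2 (0.0788) or embryoid body replicate 3 (0.0716). The other chip A probe set, 1450533_a_at, was below the 20th percentile of the chip, with 56.0, 82.3 and 42.7 in ES cells and 33.2, 42.5 and 33.3 in embryoid bodies. Its embryoid body arrays were all slightly below its ES arrays, and its log2 change of −0.18 was not called (adjusted p 0.557). The Plagl1 probe sets therefore disagreed, with 2 up and the dim one uncalled.

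Ndn encodes necdin, a protein of the MAGE family that restrains proliferation and is abundant in neurons. The human gene lies in the Prader-Willi region. It had 8 probe sets, all on chip A, of which 5 rose. The probe set that stands for the gene, 1435382_at, read 688, 579 and 976 in ES cells and 4205, 4421 and 4172 in embryoid bodies. The embryoid body arrays were nearly equal to each other and far above all ES arrays. The log2 change was 2.34 ± 0.20 (SE, n = 3 per group), or 5.07-fold, with a limma adjusted p of 0.000518. Probe set 1435383_x_at read 993, 561 and 1507 in ES cells and 4866, 4729.5 and 5139 in embryoid bodies (log2 change 2.21, adjusted p 0.00295). For 1455792_x_at the values were 763, 548 and 1441 in ES cells and 3566, 3496 and 4389.8 in embryoid bodies (1.99, adjusted p 0.00551). For 1415923_at they were 648, 758 and 1430.3 in ES cells and 3173, 3966 and 3371 in embryoid bodies (1.81, adjusted p 0.00551). These 4 probe sets had no overlap between groups and kept their call without each array in turn, and in each of them ES replicate 3 was the highest ES array.

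The other called Ndn probe set, 1437853_x_at, read 1580.2, 1238 and 1746 in ES cells and 3271, 2402 and 5176 in embryoid bodies. Its groups did not overlap, but the embryoid body arrays spread more widely than in the others. The log2 change was 1.12 ± 0.26 (SE) with a limma adjusted p of 0.0353, and the call was lost without ES replicate 1 (0.0978), ES replicate 2 (0.104), embryoid body replicate 1 (0.103) or embryoid body replicate 3 (0.0927), and also with the fluidics position as a block (0.0618) or with no intensity trend (0.0796). The 3 remaining Ndn probe sets overlapped between groups. For 1438939_x_at the arrays read 341, 545 and 443 in ES cells and 354, 441 and 524 in embryoid bodies (log2 change −0.00, 95% interval −0.65 to 0.64). For 1438978_x_at they read 465, 517 and 191 against 129, 371 and 420.2 (−0.26, −1.15 to 0.63). For 1456575_at they read 276, 463 and 371 against 168, 239 and 637 (−0.17, −1.03 to 0.70). Their intervals lay below the changes of the 4 stable Ndn probe sets, so the probe sets of this gene disagreed.

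Peg3 encodes a large zinc finger protein that in the mouse affects fetal growth and maternal behaviour. Its probe set 1433924_at on chip A read 2097, 1883 and 3990.5 in ES cells and 6773, 4278 and 8536 in embryoid bodies. The groups did not overlap, but the gap between ES replicate 3 and embryoid body replicate 2 was small. The log2 change was 1.28 ± 0.31 (SE, n = 3 per group) with a limma adjusted p of 0.0395. The call was lost without ES replicate 1 (0.138), ES replicate 2 (0.121), embryoid body replicate 1 (0.133) or embryoid body replicate 3 (0.128). It was also lost with no intensity trend (0.0894), with the chip median as pseudocount (0.0518) and with probe sets averaged per gene (0.0501). Probe set 1417356_at read 445, 106 and 231 in ES cells and 1323, 749 and 1694 in embryoid bodies. All embryoid body arrays were above the ES arrays, with a log2 change of 1.84 ± 0.39 (SE) and a limma adjusted p of 0.0260. That call was lost without ES replicate 2 (0.0672), embryoid body replicate 1 (0.104) or embryoid body replicate 3 (0.0983), and with the fluidics position as a block (0.112).

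The other 3 Peg3 probe sets were not called. On chip A, 1417355_at read 1748, 1864 and 1809.8 in ES cells and 1839, 1423 and 5003 in embryoid bodies. Its ES arrays were nearly equal, while embryoid body replicate 3 alone was high and the other two lay within or below the ES range (log2 change 0.37, adjusted p 0.613). On chip B, 1447731_at read 588, 749 and 418 in ES cells and 262, 394 and 39.7 in embryoid bodies. Every embryoid body array was below every ES array, with a log2 change of −0.85 (95% interval −1.69 to −0.00) and a limma adjusted p of 0.177. The chip B probe set 1447732_x_at was among the dimmest 20% of its chip, with 158, 129 and 185 in ES cells and 78.3, 130.3 and 25.8 in embryoid bodies (log2 change −0.32, adjusted p 0.278).

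Igf2 is a fetal growth factor, and Dlk1 is a transmembrane protein with EGF-like repeats that restrains adipocyte differentiation. For Igf2, 1448152_at read 3053, 2237 and 3288 in ES cells and 3152, 4224 and 5519.7 in embryoid bodies. Embryoid body replicate 1 lay within the ES range and the other two above it. The log2 change of 0.55 (95% interval 0.05 to 1.04) was not called after adjustment (limma adjusted p 0.180). The second Igf2 probe set, 1415931_at, was dim and scattered, with 77.0, 433 and 72.9 in ES cells and 324, 200.03 and 40.3 in embryoid bodies (log2 change 0.04, adjusted p 0.978).

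Dlk1 had 1 probe set on each chip. On chip B, 1442724_at read 441, 817 and 245 in ES cells and 1263, 2054 and 2299.8 in embryoid bodies. The groups did not overlap, and the log2 change was 1.53 ± 0.41 (SE, n = 3 per group) with a limma adjusted p of 0.0391. The call held only without ES replicate 2 (0.0401), and the adjusted p was 0.0971 without ES replicate 1, 0.0982 without ES replicate 3, and 0.0677, 0.0992 and 0.126 without embryoid body replicates 1, 2 and 3. On chip A, 1449939_s_at read 980.2, 1005 and 1685 in ES cells and 1134, 1788 and 2149 in embryoid bodies. These groups overlapped, and the log2 change of 0.42 (95% interval −0.20 to 1.04) was not called (adjusted p 0.419).

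Nnat encodes neuronatin, a small membrane protein of developing neurons, and lies inside an intron of Blcap. Its probe set 1423506_a_at read 819, 1152 and 2463 in ES cells and 2850.2, 3178 and 5590.0 in embryoid bodies. The groups did not overlap, and in both of them replicate 3 was the highest array. The log2 change of 1.38 ± 0.36 (SE, n = 3 per group) missed the threshold at a limma adjusted p of 0.0544. It was 0.00890 without ES replicate 3, 0.00641 with the replicate number as a block and 0.00256 with the fluidics position as a block. The fluidics block also takes ES replicate 3 out of the comparison, with embryoid body replicate 1, so it is no separate check. Without each of the other arrays the adjusted p was 0.0955 to 0.168. It was below 0.05 with a pseudocount of 1 (0.0476), without dim probe sets (0.0261) and with scan day as a random block (0.0299). It stayed above 0.05 with quantile (0.0650) or median scaling (0.0557) and with the chip median as pseudocount (0.0677). The same held with no intensity trend (0.104) and with probe sets averaged per gene (0.0579).

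Peg10, a gene derived from a retrotransposon and needed for the mouse placenta, and Sgce, which encodes epsilon-sarcoglycan of the dystrophin-associated complex, lie side by side and are transcribed away from each other. Peg10 read 46.3, 329 and 228 in ES cells and 167, 207 and 287 in embryoid bodies (1427550_at, chip A). The embryoid body arrays all lay within the ES range, and the log2 change was 0.17 (95% interval −0.65 to 0.99, adjusted p 0.835). Sgce read 581, 1071 and 1038 against 733, 1388 and 1509 on chip A (1420688_a_at, log2 change 0.37, adjusted p 0.546). On chip B it read 691, 1037 and 777 against 363, 813 and 1104 (1443518_at, −0.16, adjusted p 0.829). Both Sgce probe sets overlapped between groups. Snrpn, which encodes the SmN protein of the spliceosome, had 1 probe set of its own, with 87.8, 165 and 151 in ES cells and 358, 248 and 93.6 in embryoid bodies (1432096_at). The groups overlapped because embryoid body replicate 3 fell among the ES arrays (log2 change 0.39, adjusted p 0.527).

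**Figure D2:**
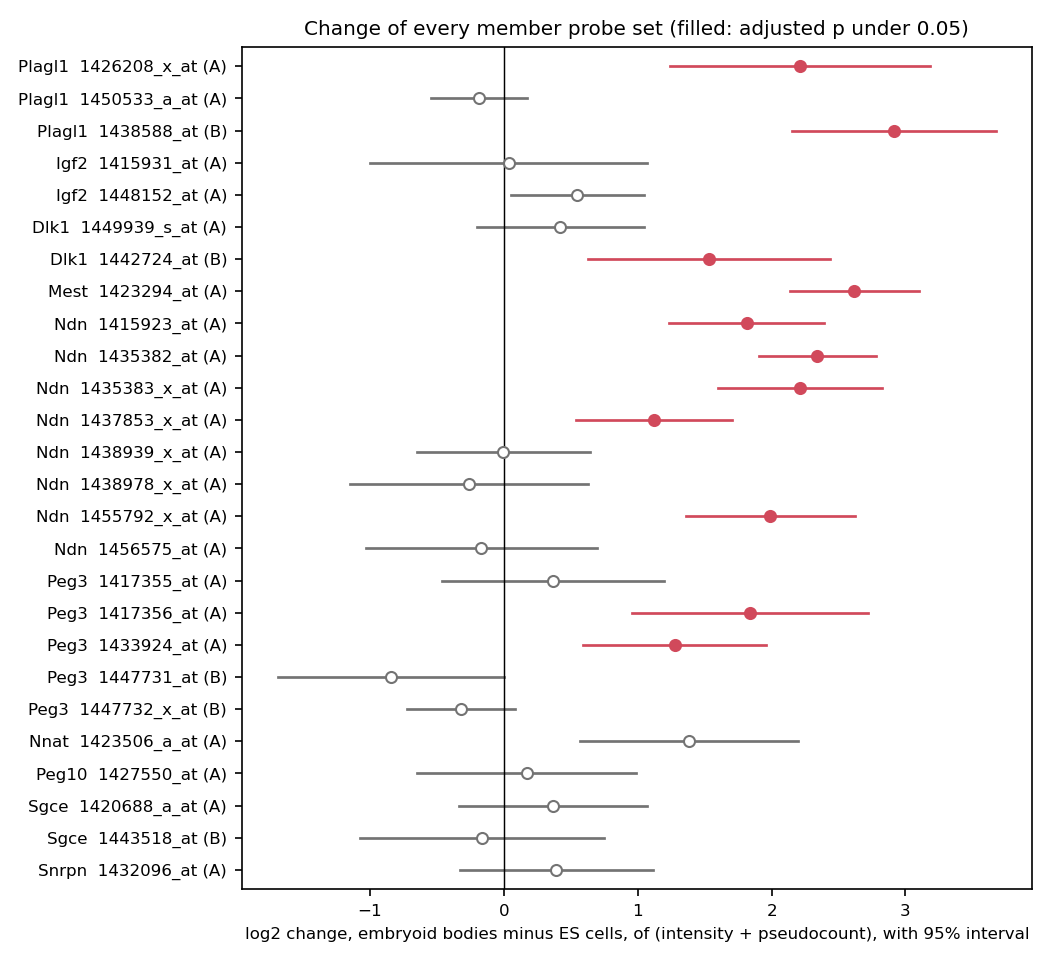
Log2 change of each of the 26 probe sets (horizontal axis, embryoid bodies minus ES cells) with its 95% interval from limma, where filled red points have an adjusted p under 0.05. The called points run from 1.12 for an Ndn probe set to 2.92 for the Plagl1 probe set on chip B, and 0 called points lie left of zero.

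Genes of the same imprinted cluster were set against each other within each array, as a difference of log2 values, with exact two-sided permutation tests in which 3 against 3 arrays can give no p below 0.1. For Ndn minus Snrpn the difference was 1.88, 1.25 and 1.95 in ES cells and 3.13, 3.57 and 4.23 in embryoid bodies. It was larger in every embryoid body array, by 1.95 on average, at the smallest p the test allows (exact p = 0.1). With the chip A probe sets of each gene averaged, it was 0.74 (exact p = 0.3). The Snrpn probe set was dim (percentile 21.6 of the chip), and its log2 change was 0.39, beside 2.34 for Ndn 1435382_at. Peg10 1427550_at was dim as well (percentile 24.1). Peg10 minus Sgce moved by −0.20 (exact p = 0.5). Dlk1 minus Meg3, a maternally expressed RNA of the Dlk1 cluster, moved by 0.22 (exact p = 0.8). In both of these the ES and embryoid body arrays overlapped.

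The arrays on which these values rest differed between the groups in ways other than culture. All ES arrays came from 1 chip lot and all embryoid body arrays from another, and the groups were scanned on different days, so that chip lot, scan day and culture state cannot be told apart. On chip A 2 fluidics positions held an ES and an embryoid body array each. The fit with fluidics position as a block takes its chip A comparison from those arrays alone. ES replicate 3 and embryoid body replicate 1 do not enter it, and 1 residual degree of freedom remains. Within those positions the log2 differences were 2.77 and 3.19 for Mest, 2.47 and 2.59 for Ndn 1435382_at and 2.76 and 3.34 for Plagl1 1426208_x_at. All had the direction of the pooled change.

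Among ES arrays, replicate 3 was the highest in 8 of the 9 called probe sets on chip A. The same held for 65.2% of all chip A probe sets that rose and 29.2% of all those tested. Without ES replicate 3, 10 of the 21 probe sets on chip A rose. With the other arrays left out in turn the count ran from 5 without ES replicate 2 or embryoid body replicate 3 to 8 without embryoid body replicate 2. On chip B it was 2 without ES replicate 2 and 1 without each of the other arrays.

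Feeder fibroblast and stem cell markers differed between the groups as well. Of 26 fibroblast markers, 0 rose and 9 fell in embryoid bodies, and their summed intensity was 42324 to 79288 in ES cells and 21644 to 33239 in embryoid bodies. Col1a1, the fibroblast collagen with the largest change of these markers, read 4923 ± 1554 (SD, n = 3) in ES cells. It was nearly gone in embryoid bodies at 48.6 ± 20.2 (SD, n = 3). Another 17 were not called, among them Sparc (means 9846 and 6837) and Mmp2, which was higher on average in embryoid bodies (2481 and 3102). Among the ES arrays the fibroblast sum was lowest in replicate 2 and highest in replicate 3. On chip A, Mest, Peg3 1433924_at and most called Ndn probe sets had the same order. The share of all chip A probe sets with this order was not computed. Replicate 3 was the highest ES array in 65.2% of all that rose, so the order is not particular to these genes. Ndn 1415923_at and Plagl1 1426208_x_at were lowest in replicate 1, and Peg3 1417356_at was highest in replicate 1. Of 21 pluripotency markers, 16 fell and 0 rose, with sums of 190712 (replicate 3) to 302062 in ES cells and 101905 to 125723 in embryoid bodies. Pou5f1 fell from 14603 to 7688 on average (limma adjusted p 0.00781), while Nanog, at 5799 and 5187, was not called. Of 16 neural ectoderm markers, a list that includes Nnat, 6 rose and 0 fell, and of 17 primitive streak and mesoderm markers 5 rose and 0 fell. Among 20 extraembryonic endoderm markers 1 rose and 0 fell, among 12 trophoblast markers, a list that includes Peg10, 0 rose and 1 fell, and among 9 leukocyte markers 0 rose and 1 fell. The marker counts used 1 probe set per gene, and read so, 4.42% of all 18193 genes rose and 4.37% fell. A single call in a list this short is therefore not read as a difference of that cell type. The part of these cell types in the members' changes was not tested.

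**Figure D3:**
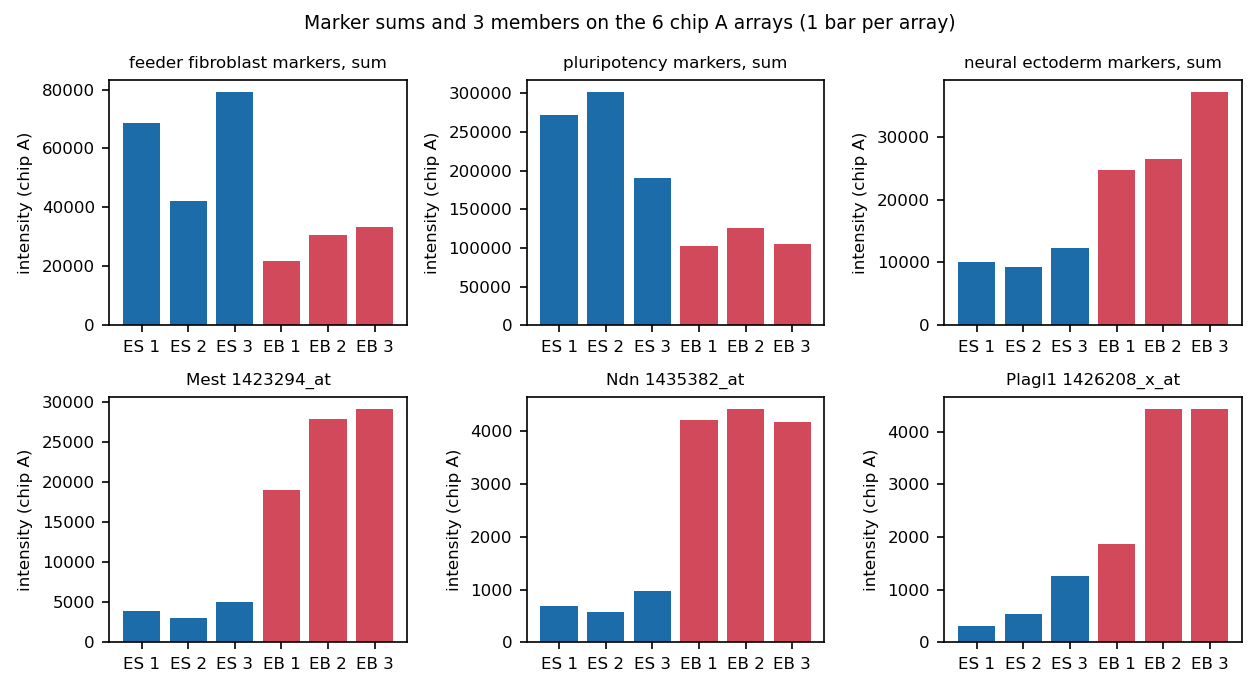
Intensity on each of the 6 chip A arrays (1 bar per array, axes from 0, ES cells blue and embryoid bodies red) of the summed fibroblast, pluripotency and neural ectoderm markers and of Mest, Ndn 1435382_at and Plagl1 1426208_x_at. The fibroblast and pluripotency sums are lower in all embryoid body arrays, and the neural sum and the 3 genes are higher in all of them.

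Other imprinted genes were read with 1 probe set per gene. Read in that way, Mest, Ndn and Peg3 rose among the members, and the others, Plagl1 and Dlk1 included, were not called. Over all 18193 genes, 4.42% rose and 4.37% fell, with a median log2 change of −0.06. Of 20 other paternally expressed genes, 3 rose and 3 fell, with a median of 0.12. Peg12, a small gene of the Ndn cluster, rose from 6.64 ± 1.55 to 583 ± 99.1 (SD, n = 3 each; log2 change 2.32, limma adjusted p 0.00141). Its probe set was dim (percentile 30.8 of chip A), and its ES values lay far below the pseudocount. Gnas has transcripts of differing parental origin, and that of the stimulatory G protein alpha subunit is not the paternal one. It rose from 9757 ± 2662 to 28421 ± 2396 (1.56, adjusted p 0.00298), in 1 of its 5 probe sets. Which transcript that probe set measures was not tested, so the rise may not be of a paternally expressed RNA. Impact rose in its chip A probe set (1.11, adjusted p 0.0263), while its 2 chip B probe sets were not called and were lower on average. One of these read 1787, 2243 and 1629 in ES cells and 590, 1410 and 795 in embryoid bodies, with every embryoid body array below every ES array (-0.90, adjusted p 0.120). Sfmbt2, a Polycomb-group gene, fell from 2294 ± 424 to 829.7 ± 97.8 (−1.32, adjusted p 0.00728) on chip A. Its chip B probe set was not called (0.27, adjusted p 0.683). Slc38a4, an amino acid transporter, and the non-coding RNA Kcnq1ot1 fell by 0.86 and 0.90. Zdbf2, the brightest gene of the list that was not called, had a log2 change of 0.32.

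Of 31 maternally expressed imprinted genes, 3 rose and 3 fell, with a median log2 change of −0.17. Grb10, an adaptor that restrains insulin and growth factor signalling, rose by 1.21 (limma adjusted p 0.0237), and Commd1 and Nap1l4 by 1.16 and 0.73. Other probe sets of Grb10 (adjusted p 0.110 and 0.372) and Commd1 (0.0501) were higher on average but not called. Phlda2, which limits placental growth, fell by 1.20 (adjusted p 0.00665), and the tetraspanin Cd81 and the non-coding RNA Mirg fell by 0.79 and 0.62. The brightest uncalled gene was Meg3 (0.21, adjusted p 0.728). Of 21 genes that neighbour the members in the genome, 0 rose and 0 fell by limma, and 4 had an unadjusted p below 0.05, where 25.9% of all genes did. The brightest of them was Mrpl23 (0.59, adjusted p 0.0666). The neighbour list shares 5 genes with the other paternal and 6 with the maternal list.

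Among 22 factors that keep imprints or DNA methylation, 1 rose and 4 fell, with a median of −0.00. Zfp57, the imprint-binding factor described above, read 4106, 3969.5 and 1029 in ES cells and 175, 584 and 469 in embryoid bodies. All embryoid body arrays were below the ES arrays, and ES replicate 3 was far below the other ES arrays. Its log2 change was −2.41 ± 0.50 (SE, n = 3 per group; limma adjusted p 0.0229). Dnmt3l, a cofactor of the de novo DNA methyltransferases, fell from 7718 ± 2732 to 1112 ± 348 (SD; log2 change −2.62, adjusted p 0.00211). Dppa3, which in the mouse shields maternal methylation and is also on the pluripotency list, fell by 1.33 (adjusted p 0.0135), and Trim28, the corepressor recruited by ZFP57, by 0.60 (adjusted p 0.0493). Uhrf1, which brings the maintenance methyltransferase to replicated DNA, rose by 0.88 (adjusted p 0.0119), while its other probe set was not called (0.43, adjusted p 0.181). Dnmt3b was not called (0.17, adjusted p 0.775). Of the 17 genes called in these 3 lists, 5 kept the call without each array in turn: Peg12, Gnas, Sfmbt2, Phlda2 and Dnmt3l. The other 12 lost it in at least 1 such fit, where their highest adjusted p was 0.0603 to 0.187. With the fluidics position as a block, 7 of the 17 lost the call (adjusted p 0.0508 to 0.114): Slc38a4, Sfmbt2, Mirg, Nap1l4, Trim28, Uhrf1 and Dppa3. On chip A that fit leaves ES replicate 3 and embryoid body replicate 1 out of the comparison.

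**Figure D4:**
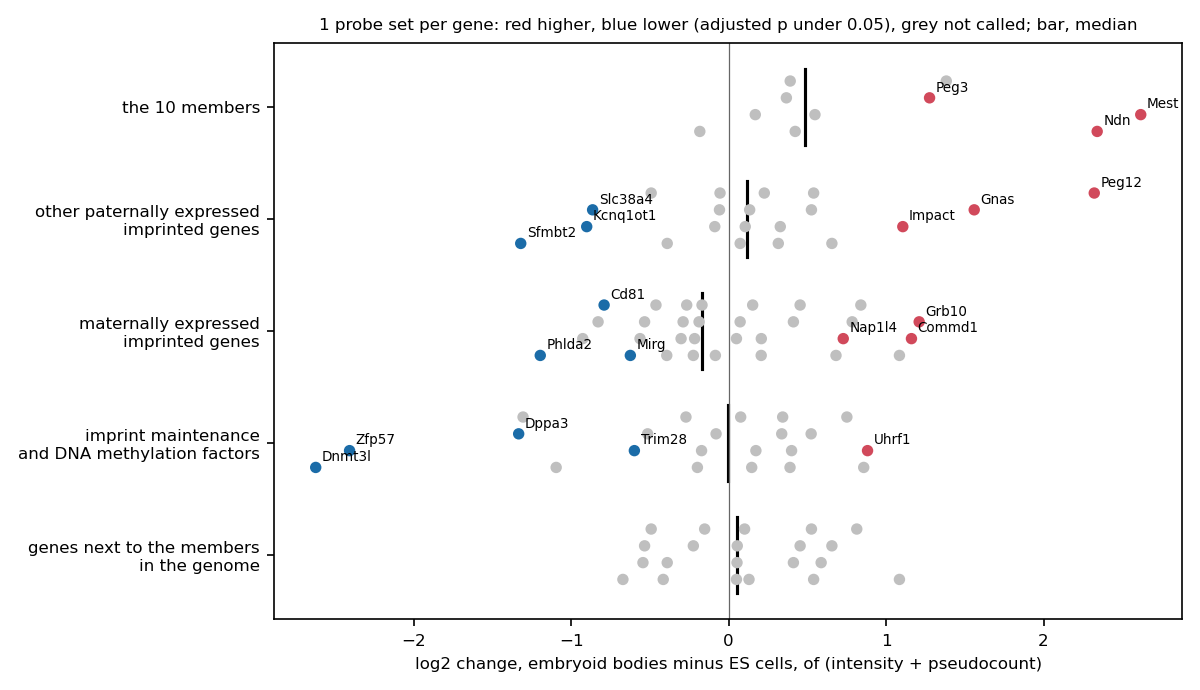
Log2 change (embryoid bodies minus ES cells) of each gene by its standing probe set, for the 10 members and 4 related lists, with called genes in red (higher) or blue (lower), uncalled genes in grey and a black bar at the median. The standing probe set of Plagl1 is its dim one, so Plagl1 is grey here although its brighter probe sets rose, and all neighbour genes are grey.

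The genes most like Mest over the 6 chip A arrays, by Pearson's r of log2 values among 10485 probe sets above the chip median, were Hnrnpdl (r = 0.999), Zfp410 (0.999) and Anapc4 (0.997). Hnrnpdl read 2958, 2652 and 3125 in ES cells and 4675, 5247 and 5241 in embryoid bodies, a log2 change of 0.77, smaller than that of Mest. The member with the lowest change was Plagl1 by its dim probe set, which is too dim for such a ranking, and the genes most like it are not given. With 6 arrays in 2 groups, genes that separate the groups tend to have a high r, and these values describe likeness of pattern only.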

How the data were processed

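Total RNA of 3 ES cell and 3 embryoid body samples was hybridized to both chips. The deposited tables held 1 intensity per probe set and array on a linear scale, computed in MAS5 according to the labels (per the submitters' processing notes; no version is given in the sources used here). The trimmed mean of each array (2% off each end) was 1500.1 to 1500.6 on the 12 arrays, so the values were not normalized again. Per chip, 64 control probe sets were left out, and 22626 probe sets of chip A and 22511 of chip B were tested with limma 3.58.1 in R 4.3.3 (intensity trend, Benjamini-Hochberg, threshold 0.05) on log2(intensity + pseudocount), the pseudocount being the 20th percentile of the chip. Where 1 probe set stands for a gene, chip A was preferred to chip B, IDs without _x_at to those with it, and then the brightest was taken. For each list the 4 largest called genes and the brightest uncalled one are named, with a few further called genes added after their values were seen. H19 was not compared with Igf2, because its probe set names several genes, and 1 label-check gene is not analysed here. Members and lists were chosen with earlier results of these data known. Chip lot, fluidics position and scan day came from the deposited array records. The procedure was also tested on simulated data. Alternatives were quantile and median scaling, other pseudocounts, a filter on dim probe sets, no trend, blocks for replicate, scan day and fluidics position, averaged probe sets, a stricter threshold and leaving out each array.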

Additional observations from a re-analysis of the deposited data

How the results depend on the processing

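The arrays hold no detection calls used here, so dim probe sets are read only by their intensity, and 8 of the 26 lay at or below the 40th percentile. Whether the replicate numbers pair the samples could not be decided from the arrays. Same-numbered arrays had correlations of their deviations, over all probe sets, between -0.07 and 0.04, and differently numbered ones between -0.09 and 0.10. With the replicate number as a block, 10 probe sets of the 10 genes rose on chip A and 2 on chip B, beside 9 and 2 without it, and Nnat was the one added. Of the 17 called genes of the related lists, Mirg and Trim28 lost their call under this block (0.0704 and 0.119). On chip B, which holds the Mirg probe set, fluidics positions follow the replicate numbers. The replicate and fluidics blocks are therefore the same fit there and not separate checks. With no intensity trend 7 rose on chip A, and with the chip median as pseudocount 8. At an adjusted p of 0.01 these counts were 5 and 1, and leaving out 1 array gave 5 to 10 and 1 to 2. The counts over all probe sets of chip A (1425) moved to 844 without the intensity trend, 2243 with scan day as a random block, 878 with probe sets averaged per gene and 343 at 0.01, and those of chip B (2405) to 1245 averaged and 564 at 0.01. Leaving out 1 array gave 436 to 2091 and 934 to 1807. On chip A all ES arrays shared 1 scan day and each embryoid body array had its own. The scan day block thus models likeness among the ES arrays alone. Its estimated correlation was -0.11, and its higher count is not read as firmer evidence. No called probe set of the 10 genes changed direction under any alternative run, and the values that did were of uncalled ones. Peg10 minus Sgce was 0.081 with a pseudocount of 1, and Dlk1 minus Meg3 ran from -0.19 to 0.71 with 1 array left out. With the fluidics position as a block, Igf2 1415931_at was -0.52, Ndn 1438939_x_at 0.12, Ndn 1456575_at 0.12 and Meg3 -0.26. Ndn 1438939_x_at was 0.079 after quantile and 0.063 after median scaling. Plagl1 was 1.01 with its chip A probe sets averaged, since the dim one was then joined to a brighter one. With 1 array left out, log2 changes ran from -0.27 to 0.51 for Igf2 1415931_at, -0.14 to 0.12 for Ndn 1438939_x_at, -0.57 to 0.076 for Ndn 1438978_x_at, -0.57 to 0.11 for Ndn 1456575_at, -0.22 to 0.45 for Peg10, -0.15 to 0.71 for Peg3 1417355_at, -0.41 to 0.16 for Sgce 1443518_at, -0.046 to 0.48 for Meg3 and -0.12 to 0.42 for Dnmt3b. The cause of these moves was not tested.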
